A study of Schizosaccharomyces pombe with 8 samples.

Results

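The comparison described here asks which transcripts of the fission yeast Schizosaccharomyces pombe had not returned to their starting level 3 h after a heat shock. It sets the arrays taken after 1 h at 43C and 3 h back at 30C against the arrays taken at 30C before heat, within each of 2 strains, and so uses 4 of the 8 arrays of the study. The strains are opi10- and opi10+, named for the state of the opi10 gene. All cultures grew in liquid Edinburgh Minimal Medium to mid-log phase, and each strain gave 1 array in each condition: opi10- and opi10+ at 3 h of recovery, and opi10- and opi10+ before heat. The other 4 arrays were taken at the end of the heat treatment and 1 h after it. The labels do not give the rest of the genotypes, nor the kind of change made at opi10, nor whether each array had a culture of its own, so p-values measure only the spread between these arrays.

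When fission yeast is heated, the transcription factor Hsf1 induces genes of chaperones, which refold damaged proteins, and the Sty1 MAP kinase acts through the factor Atf1 on a core set of stress genes. Genes for making ribosomes are usually turned down during stress and come back as growth resumes. The product of opi10 belongs to the Hikeshi family, and in human cells Hikeshi brings HSP70 into the nucleus when cells are heated.

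The array type is shared with the budding yeast Saccharomyces cerevisiae, whose probe sets served as a measure of background. In all, 2914 probe sets were paired with a single S. pombe gene and stood for 2896 genes, of which 2892 were bright enough to test. The median S. pombe probe set had a deposited signal of 1041 in opi10- and 1096 in opi10+ at 3 h, and of 922.4 in opi10- and 1004 in opi10+ before heat. Below, signal means the value after quantile normalization of the arrays, and a change means the difference in log2(signal + 16), which understates the changes of dim genes. The median gene changed by -0.033 after normalization and by 0.105 on the deposited scale, so changes are relative to the other genes. At 43C the median deposited signal was lower, at 516.5 in opi10- and 492.5 in opi10+. Normalization removes that difference, so levels and calls at 43C are also relative to the other genes. The annotation pairs no probe set with opi10, so its level could not be used to check the strain labels.

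At 3 h of recovery the genes that still differed from their level before heat were found in both directions, and few of them differed by 2-fold. By limma's moderated test, with the strain as a paired term and a Benjamini-Hochberg adjusted p below 0.05, 569 genes (19.7%) were higher and 643 (22.2%) were lower at 3 h than before heat. Of these, 85 (2.94%) were at least 2-fold higher and 40 (1.38%) at least 2-fold lower. The genes past 2-fold in both strains were 48 (1.66%) on the high side and 19 (0.657%) on the low side. The median size of change, regardless of sign, was 0.573 at 43C, 0.367 at 1 h and 0.328 at 3 h in opi10-, and 0.571, 0.33 and 0.233 at the same times in opi10+; these differences all use the same arrays before heat. At 3 h, 222 genes lay past 2-fold in opi10- and 95 in opi10+, each counted from 1 array against 1 with no test. The counts of higher and lower genes fell to 275 and 318 without the opi10- array at 3 h, to 291 and 292 without the opi10- array before heat, and to 379 and 426 without the opi10+ array at 3 h. On the deposited scale 776 genes were higher and 330 lower. Each array averages a whole culture, so a change in every cell and a change in a fraction of the cells cannot be told apart.

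The largest rise was that of mel1, the gene of an alpha-galactosidase that splits sugars such as melibiose. Its signal was 1503 in opi10- and 919.4 in opi10+ at 3 h, against 27.37 in opi10- and 64.84 in opi10+ before heat, a change of 4.33 ± 0.44 (SE, adjusted p = 0.00216). Both 3 h arrays stood far above both earlier ones, and at 43C the gene already read 759.8 in opi10- and 620.8 in opi10+. Next came ssa1, the stress-inducible cytosolic HSP70, with 2734 in opi10- and 3560 in opi10+ at 3 h, against 191.1 in opi10- and 424.7 in opi10+ before heat. It changed by 3.38 ± 0.22 (adjusted p = 0.00142). The gene pcm2, a member of the family of methyltransferases that repair damaged aspartate residues in proteins, rose by 3.27 ± 0.24. It had 1039 in opi10- and 976 in opi10+ at 3 h, against 62.65 in opi10- and 127.3 in opi10+ before heat. These 3 genes had in common that both strains were far below the 3 h level before heat, opi10- the lower of the pair. The pcm2 and mel1 genes are also neighbours on their chromosome.

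The other 9 of the 12 largest rises included genes of sugar uptake, ion transport, glycerol metabolism and stress transcription. The change was 3.13 ± 0.20 for mug150, 3.07 ± 0.28 for ght1, 2.77 ± 0.09 for ght4 and 2.65 ± 0.34 for mug108. It was 2.32 ± 0.33 for cta3, which encodes a cation-transporting ATPase, 2.21 ± 0.32 for gld1, a glycerol dehydrogenase gene, and 2.16 ± 0.18 for atf21, the gene of a bZIP transcription factor. The smallest of the 12 were nta1 at 1.93 ± 0.11 and tcb2 at 1.72 ± 0.39. Among all 12 genes the lower of the 3 h arrays exceeded the higher of the arrays before heat. The genes were picked for large called rises in both strains, so this separation is a description. The call of tcb2 was lost without the opi10- array at 3 h (limma, adjusted p = 0.102), and the other 11 were called with any single array left out.

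Taken rank by rank, the 12 largest falls were smaller in size than the 12 largest rises. The signal of mug94, a gene named for its rise in meiosis, was 173.1 in opi10- and 241.2 in opi10+ at 3 h, against 820.9 in opi10- and 699 in opi10+ before heat. It changed by -1.81 ± 0.19 (adjusted p = 0.00216). The gene ser2, for the last enzyme of serine synthesis, had 287.8 in opi10- and 286.1 in opi10+ at 3 h, against 1008 in opi10- and 742.7 in opi10+ before heat, a change of -1.54 ± 0.24, so that the strains read nearly the same at 3 h. The gene of the UDP-galactose transporter hut1 changed by -1.42 ± 0.12, and rep2, whose product activates the G1/S transcription factor MBF, by -1.35 ± 0.10. The other falls were meu18 at -1.52, dbp3 at -1.48, rpa34 at -1.43, snd1 at -1.40, meu6 at -1.33 and sub1 at -1.32. The falls of eng1 at -1.59 ± 0.41 and gnr1 at -1.44 ± 0.38 rested on single arrays: without the opi10- or the opi10+ array before heat the adjusted p was 0.0702 and 0.0908 for eng1 and 0.0664 and 0.107 for gnr1, and without the opi10+ array at 3 h it was 0.146 for gnr1.

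**Figure D1:**
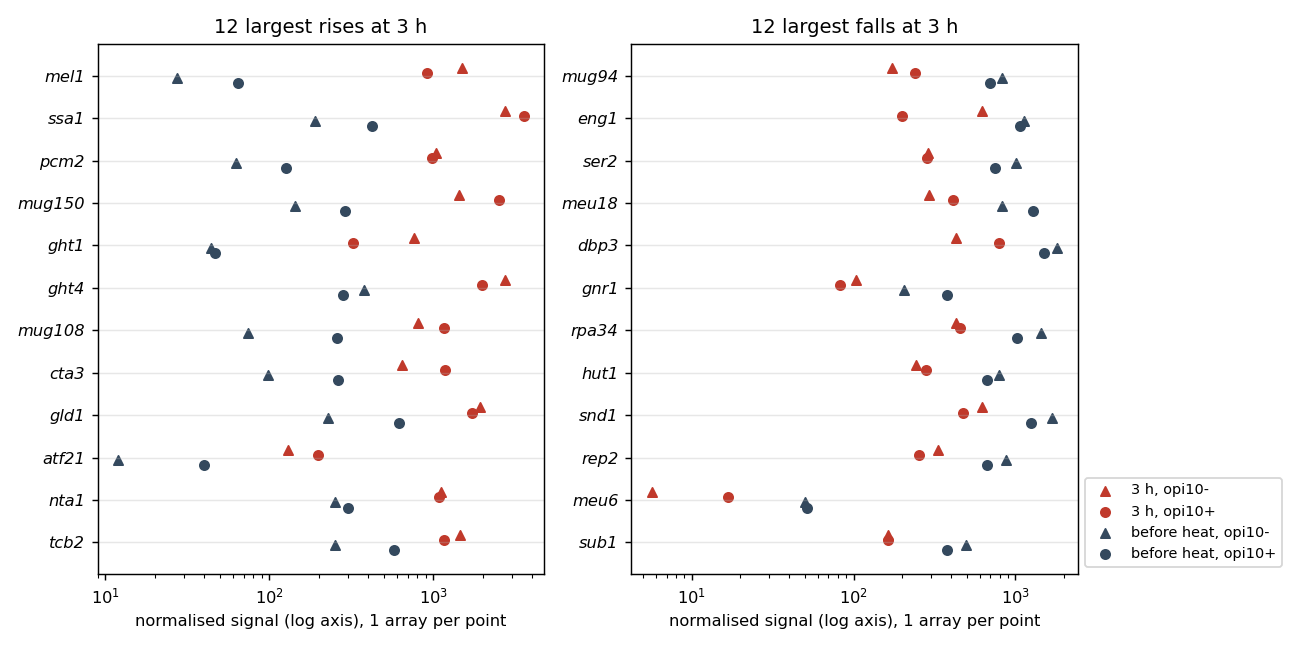
Normalised signal (log axis, 1 array per point) of the 12 genes with the largest rises and the 12 with the largest falls at 3 h of recovery, with 3 h in red, before heat in dark blue, opi10- as triangles and opi10+ as circles. The red and dark blue points of a gene do not overlap, as for mel1 with 1503 and 919.4 at 3 h against 27.37 and 64.84 before heat. The genes were picked for large changes, so this separation is a description.

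Few chaperone genes were still higher at 3 h, and ssa1 stood out in its family. Of the 6 HSP70 family genes measured, ssa1 passed the test, and the other 5 changed by between -0.20 and 0.00. The gene of the ER chaperone bip1 read 2845 in opi10- and 5167 in opi10+ at 3 h, against 4404 in opi10- and 3931 in opi10+ before heat, so the strains moved in opposite directions. The gene ssa2 read 6316 in opi10- and 7536 in opi10+ at 3 h, against 7209 in opi10- and 7266 in opi10+ before heat. All 6 family members were lower in opi10- than in opi10+ at 3 h, compared with 3 of 6 before heat. Of all 2892 tested genes, 1420 were lower in opi10- at 3 h and 1271 before heat. These counts are from 1 array each and without a test. Among 26 cytosolic chaperones and their partners, 3 rose (11.5%) and 8 fell (30.8%), against 19.7% and 22.2% of all genes. The 3 that rose were ssa1, hsp16, a small heat shock protein gene, and psi1, which encodes a DNAJ partner of HSP70. For hsp16 the signal was 7492 in opi10- and 6849 in opi10+ at 3 h, against 1545 in opi10- and 3184 in opi10+ before heat, a change of 1.68 ± 0.28 (adjusted p = 0.00594). Signals of psi1 were 2687 in opi10- and 2470 in opi10+ at 3 h, against 1144 in opi10- and 1369 in opi10+ before heat, well under its 11171 in opi10- and 12796 in opi10+ at 43C. Of the 8 subunits of the CCT ring, which folds actin and tubulin, 6 fell and none rose, with changes between -0.68 and -0.1. The largest of them was cct4, with 1952 in opi10- and 1720 in opi10+ at 3 h, against 3140 in opi10- and 2749 in opi10+ before heat (-0.68 ± 0.08, adjusted p = 0.00288). Leaving out either opi10- array, at 3 h or before heat, took the falls in the whole list to 5 of 26. Among 11 chaperones of mitochondria and the ER, 1 fell (9.09%) and none rose, both under the shares of all genes. With the median centring 3 of the 11 fell.

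The Sty1 stress pathway stayed up in part, with genes of the phosphatase pyp2 and of downstream factors high and the upstream kinase gene wis1 low. Of 27 measured members, 13 rose and 3 fell, against 19.7% and 22.2% of all genes, with a median change of 0.29. The gene of pyp2, a tyrosine phosphatase that switches Sty1 off, had 755.3 in opi10- and 1083 in opi10+ at 3 h, against 192.1 in opi10- and 363.6 in opi10+ before heat. Its change of 1.71 ± 0.15 (adjusted p = 0.00179) compares with 4.64 at 43C. The signal of atf21 was 129.2 in opi10- and 199.5 in opi10+ at 3 h, against 11.94 in opi10- and 40.23 in opi10+ before heat. The kinase gene srk1, which acts below Sty1, rose by 1.68 ± 0.25, and csx1, for an RNA-binding protein that stabilises the atf1 transcript, by 1.20 ± 0.12. Genes of the paired factors atf1 and pcr1 also rose, by 0.65 ± 0.17 and 0.90 ± 0.20, while wis1, the kinase that activates Sty1, fell by 0.69 ± 0.12; these 3 were named after their values were seen. The gene sty1 itself changed by 0.08 ± 0.08 and was not called. Rises numbered 7 without the opi10- array at 3 h and 8 without the opi10- array before heat.

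Genes of glycerol and trehalose metabolism had one of the highest shares of risen members among the lists. Trehalose is a sugar that protects proteins and membranes, and glycerol is the main osmolyte of this yeast. Of 11 listed genes measured, 8 rose and 1 fell, with a median change of 0.697. The 1 that fell, fps1, encodes farnesyl diphosphate synthase in this yeast, so its fall is not that of a glycerol gene. The signal of gld1 was 1919 in opi10- and 1723 in opi10+ at 3 h, against 228.9 in opi10- and 622 in opi10+ before heat. Its partner dak2, a dihydroxyacetone kinase gene, had 4817 in opi10- and 4123 in opi10+ at 3 h, against 1146 in opi10- and 1630 in opi10+ before heat, a change of 1.69 ± 0.17 (adjusted p = 0.00216). At 43C dak2 had stood lower than before heat, at 718.1 in opi10- and 840.6 in opi10+. The gene gut2, for mitochondrial glycerol-3-phosphate dehydrogenase, rose by 1.72 ± 0.24, with 1662 in opi10- and 1697 in opi10+ at 3 h, against 351.4 in opi10- and 707.7 in opi10+ before heat. The glycerol-3-phosphate dehydrogenase gene gpd1 rose by 0.77 ± 0.19, a call lost without the opi10- array at 3 h (adjusted p = 0.128). The 1 gene that fell was fps1, at -0.37 ± 0.08, and none fell without the opi10+ array at 3 h or the opi10- array before heat.

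These 11 listed genes, fps1 included, differed little between the strains at 3 h and more before heat. The median of opi10- minus opi10+ was 0.027 at 3 h and -0.351 before heat, and opi10- was the lower strain for 1 of 11 genes at 3 h and for 10 of 11 before heat. For all tested genes those counts were 1420 and 1271 of 2892. The change was therefore larger in opi10- for all 11, with a list median of 0.941 in opi10- and 0.479 in opi10+. Each of these values compares 1 array with 1 array and was not tested.

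Hexose transporters and genes for using sugars other than glucose were high at 3 h. Of the 8 measured ght genes, which encode the hexose transporter family, 5 rose (62.5%) and none fell, against 19.7% and 22.2% of all genes. The signal of ght1 was 758 in opi10- and 325.2 in opi10+ at 3 h, against 43.9 in opi10- and 46.85 in opi10+ before heat (adjusted p = 0.00187). It had not been called at 43C, where it read 78.03 in opi10- and 41.36 in opi10+, and at 1 h it read 41.36 in opi10- and 35.47 in opi10+. The gene ght4 had 2721 in opi10- and 1986 in opi10+ at 3 h, against 379.2 in opi10- and 282.8 in opi10+ before heat (adjusted p = 7.3e-05). Its changes in the strains were 2.79 in opi10- and 2.74 in opi10+, the closest match among the 12 largest rises. The smaller rise of ght2, at 0.79 ± 0.16, was lost without the opi10- array at 3 h (adjusted p = 0.067). That of the dim ght7, at 0.80 ± 0.20, was lost without the opi10- array at 3 h (0.0508) or before heat (0.134) and without the opi10+ array at 3 h (0.126). The list had 2 rises without the opi10- array at 3 h and 3 without the opi10- array before heat.

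Of 19 genes for alternative sugars and for the cAMP pathway that reports on glucose, 11 rose (57.9%) and none fell. The shares of all genes were 19.7% and 22.2%. The median change of the list was 0.722. The gene of fbp1, fructose-1,6-bisphosphatase, a textbook target of glucose repression, had 2253 in opi10- and 2459 in opi10+ at 3 h, against 613.6 in opi10- and 1117 in opi10+ before heat (1.49 ± 0.20, adjusted p = 0.0036). The sucrose and maltose transporter gene sut1 rose by 1.51 ± 0.20, with 3646 in opi10- and 3873 in opi10+ at 3 h, against 1099 in opi10- and 1565 in opi10+ before heat. The rise of the epimerase gene gal10, at 1.45 ± 0.33, did not pass with the opi10- array before heat left out (adjusted p = 0.0915). Within the list, 6 of the 7 cAMP pathway genes rose and none fell, with changes between 0.23 and 1.44. They included, named after their values were seen, cgs1, the inhibitory subunit of protein kinase A, at 1.44 ± 0.12, its catalytic partner pka1 at 1.15 ± 0.16, and the glucose receptor gene git3 at 1.16 ± 0.17. So genes of the kinase and of its inhibitor rose together. The invertase gene inv1 read 7394 in opi10- and 6294 in opi10+ at 3 h, against 1412 in opi10- and 6031 in opi10+ before heat, and did not pass the test (1.22 ± 0.50, adjusted p = 0.0939).

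Central carbon metabolism showed less. Of 13 glycolysis genes, 1 rose and 3 fell, close to or below the background in both directions. The rise was that of the second enolase gene eno102, with 7459 in opi10- and 6476 in opi10+ at 3 h, against 1902 in opi10- and 3088 in opi10+ before heat (1.51 ± 0.20, adjusted p = 0.00355). The falls of gpm1, pyk1 and pgk1 lay between -0.37 and -0.33, and none of the 3 was called without the opi10+ array before heat. Of 17 genes of the citric acid cycle and malate use, 5 rose and none fell, led by the malic enzyme gene mae2 at 0.64 ± 0.09 and idh2 at 0.60 ± 0.10, but only 2 rose without either opi10- array, and on the deposited scale 3 rose and the list's median lay at that of all genes. Of 38 respiratory chain genes 10 fell (26.3%, near the 22.2% of all genes) and 1 rose. The falls included the cytochrome oxidase gene cox8 at -0.76 ± 0.10, and their number was between 2 and 5 with any single array left out.

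Genes of autophagy, the process that carries cell contents to the vacuole, were higher at 3 h in 14 of 19 cases (73.7%) and lower in none. Of all genes 19.7% were higher and 22.2% lower. The median change of the list was 0.61. The gene of atg101, part of the complex that starts autophagy, had 346.9 in opi10- and 413.2 in opi10+ at 3 h, against 105.2 in opi10- and 177.4 in opi10+ before heat (1.37 ± 0.18, adjusted p = 0.00355). The rises of atg6, atg4 and atg1801 were 0.93 ± 0.12, 0.92 ± 0.13 and 0.91 ± 0.15. The gene atg6, the yeast beclin, read 1095 in opi10- and 1219 in opi10+ at 3 h, against 508.9 in opi10- and 706.9 in opi10+ before heat. All 19 autophagy genes were lower in opi10- than in opi10+ before heat, but 5 of 19 at 3 h. Of all 2892 tested genes, 1271 were lower in opi10- before heat and 1420 at 3 h. This compares 1 array with 1 array and was not tested. Rises numbered 6 without the opi10- array at 3 h and 8 without the opi10- array before heat. Of 8 vacuolar proteases 2 rose (25%, near the 19.7% of all genes), psp3 by 0.76 ± 0.11 and cpy1 by 0.39 ± 0.08. The gene cpy1 was not called without the opi10- array at 3 h, nor by limma without the replicate block of strain (adjusted p = 0.0594). Of 12 subunits of the vacuolar ATPase, which acidifies the same compartment, 5 fell (41.7%) and none rose. The vacuolar ATPase falls numbered 1 to 3 with any single array left out. For the lists said to have no member on one side, limma also gave 0 there at an unadjusted p below 0.05, apart from 1 rise among chaperones of mitochondria and the ER and 2 falls among the iron genes described below.

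**Figure D2:**
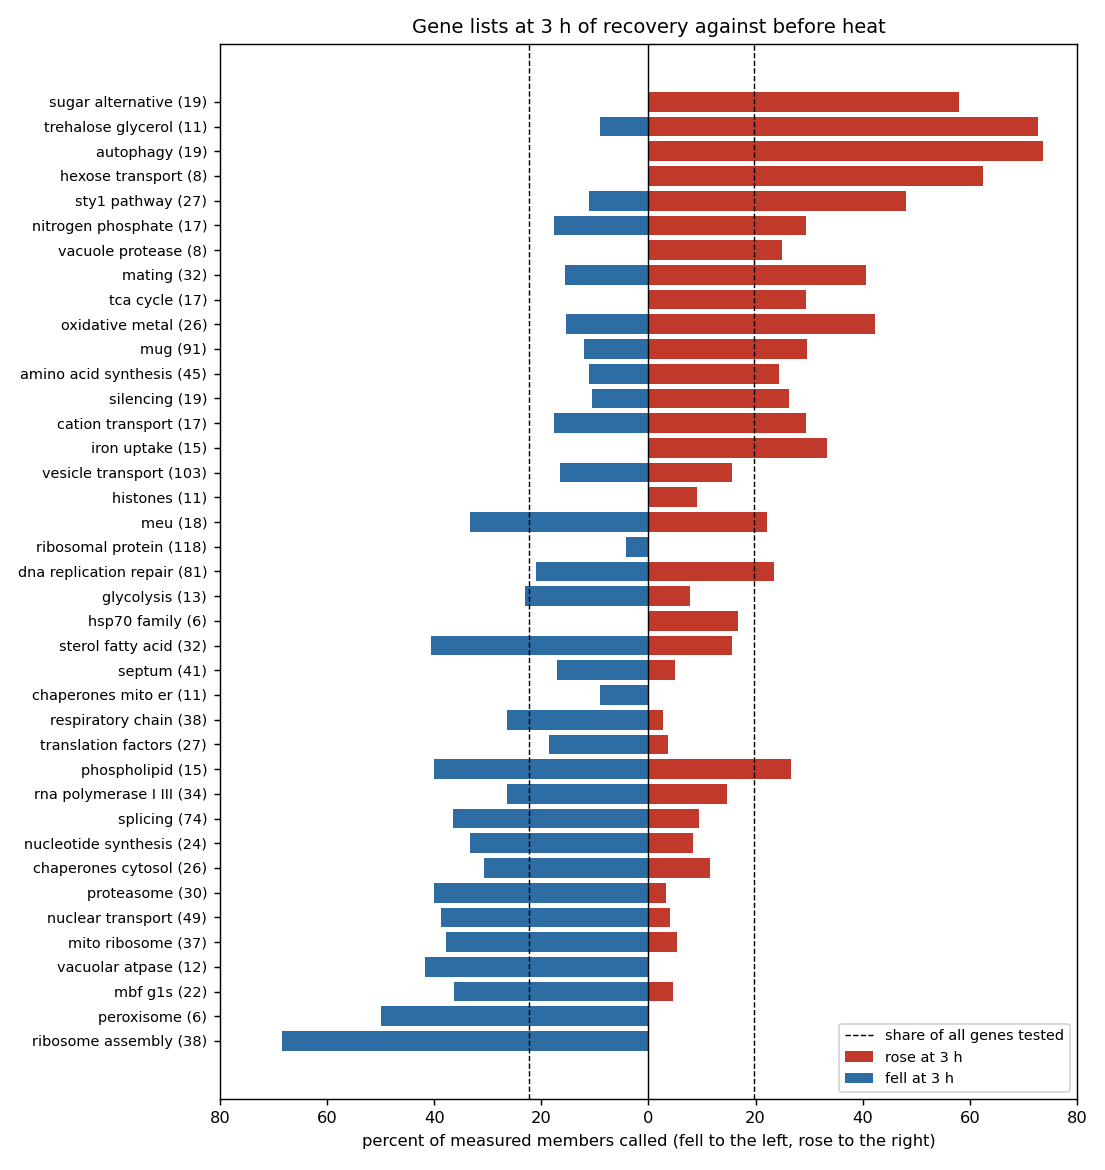
Percent of the measured members of 39 gene lists that rose (red, right) or fell (blue, left) at 3 h of recovery against before heat, with list sizes in brackets, lists sorted by median change and dashed lines at 19.7% and 22.2%, the shares of all 2892 genes. Autophagy (14 of 19) and trehalose and glycerol genes (8 of 11) reach furthest to the right and ribosome assembly genes (26 of 38) furthest to the left.

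Oxidative stress and metal defence genes were split. Of 26 genes, 11 rose (42.3%, against 19.7% of all genes) and 4 fell, with a median change of 0.157. The catalase gene ctt1 had 5490 in opi10- and 5624 in opi10+ at 3 h, against 1647 in opi10- and 3206 in opi10+ before heat, a change of 1.27 ± 0.27 (adjusted p = 0.013). The glutathione transferase genes gst3 and gst1 rose by 1.23 ± 0.24 and 0.98 ± 0.23, and the metallothionein gene zym1 by 0.92 ± 0.26. All 4 of these rises were lost without the opi10- array at 3 h (adjusted p = 0.0859 for ctt1, 0.0667 for gst3, 0.0812 for gst1 and 0.191 for zym1), and the list then had 2 rises. Those of gst1 and zym1 were also lost without the opi10- array before heat (0.056 and 0.0671), that of gst1 without the opi10+ array at 3 h (0.0734), and that of zym1 without either 1 h array (0.061). Without the opi10- array before heat the list had 4 rises. The 4 that fell, named after their values were seen, were trx2 at -0.49, grx3 at -0.38, pgr1 at -0.36 and trr1 at -0.28. They were 15.4% of the list, where 22.2% of all genes fell, and the falls numbered 1 on the deposited scale and 1 or 2 without any single array before heat, at 1 h or at 3 h. The peroxiredoxin gene tpx1 changed by -0.09 ± 0.08 and was not called.

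Genes of mating and early meiosis rose more often than they fell. Nitrogen starvation is the usual trigger of these genes, through the transcription factor Ste11. Of 32 genes, 13 rose (40.6%) and 5 fell (15.6%), against 19.7% and 22.2% of all genes, with a median of 0.199. The ste11 gene had 4600 in opi10- and 5093 in opi10+ at 3 h, against 1922 in opi10- and 2318 in opi10+ before heat (1.19 ± 0.09, adjusted p = 0.00147). The meiotic regulator gene mei2 read 3380 in opi10- and 3251 in opi10+ at 3 h, against 1399 in opi10- and 967.2 in opi10+ before heat (1.5 ± 0.26, adjusted p = 0.00637). The pheromone MAP kinase gene spk1 had 1479 in opi10- and 1406 in opi10+ at 3 h, against 546.6 in opi10- and 528.5 in opi10+ before heat, and its changes of 1.41 in opi10- and 1.39 in opi10+ were nearly equal. Both mei2 and spk1 had been lower at 43C than before heat, at 184.8 in opi10- and 311.8 in opi10+ for mei2 and at 274.3 in opi10- and 289.3 in opi10+ for spk1. Of 91 mug genes, named for a rise in meiosis, 27 rose (29.7%) and 11 fell (12.1%). Of 18 meu genes 4 rose (22.2%, near the share of all genes) and 6 fell (33.3%). On the deposited scale 46 mug genes rose and 5 fell, and 6 meu genes rose and 4 fell. Without the opi10- array at 3 h 17 mug and 2 meu genes rose, and without the one before heat 21 and 2. Falls among the mug genes numbered 7 without the opi10- array before heat or the opi10+ array at 3 h, and falls among the 32 mating genes numbered 2 without either of these.

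Genes of ribosome assembly were mostly low at 3 h. Of 38 genes for processing rRNA and assembling ribosomes, 26 fell and none rose, with a median change of -0.546, where 22.2% of all genes fell. The DEAD-box helicase gene dbp3 had 428.3 in opi10- and 786.7 in opi10+ at 3 h, against 1814 in opi10- and 1507 in opi10+ before heat (-1.48 ± 0.25, adjusted p = 0.00607). The gene ebp2 read 490.2 in opi10- and 612.4 in opi10+ at 3 h, against 1418 in opi10- and 1217 in opi10+ before heat (-1.24 ± 0.13, adjusted p = 0.00236). Signals of rrs1 were 536.8 in opi10- and 741.4 in opi10+ at 3 h, against 1586 in opi10- and 1210 in opi10+ before heat (-1.12 ± 0.19), and utp23 changed by -1.06 ± 0.18. In dbp3, ebp2, rrs1 and utp23 the opi10- array was the higher of the pair before heat and the lower at 3 h. The same held across the list: opi10- was lower than opi10+ for 36 of 38 genes at 3 h and for 2 of 38 before heat. Among all tested genes these counts were 1420 and 1271 of 2892. The list's median of opi10- minus opi10+ was -0.283 at 3 h and 0.172 before heat, not tested. Leaving out the opi10- array before heat or at 3 h took the falls to 12 and 14.

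Relative to the other genes, the median of the assembly list had been above that before heat at both earlier times. After normalization its median change was 0.352 at 43C and 0.595 at 1 h, against the same arrays before heat. The median deposited signal of all S. pombe probe sets was 516.5 in opi10- and 492.5 in opi10+ at 43C, against 922.4 and 1004 before heat. A relative rise at 43C therefore need not be a rise in deposited signal. The rrs1 gene read 2035 in opi10- and 1902 in opi10+ at 43C and 1994 in opi10- and 2214 in opi10+ at 1 h. The gene nop12 had 408.1 in opi10- and 539.9 in opi10+ at 3 h, against 1034 in opi10- and 857.3 in opi10+ before heat, after 2232 in opi10- and 2263 in opi10+ at 43C. The pescadillo family gene ppp1, which is not in the list, went the same way, with 876.8 in opi10- and 980.8 in opi10+ at 3 h, against 2201 in opi10- and 1636 in opi10+ before heat, after 2626 in opi10- and 2738 in opi10+ at 43C. In rrs1, nop12 and ppp1 the level at 3 h lay below those before heat and at 43C in each strain. They were among genes picked for being called higher at 43C and lower at 3 h, so this follows largely from the choice.

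RNA polymerases I and III, which make rRNA, 5S RNA and tRNA, had 9 of 34 genes lower (26.5%) and 5 higher (14.7%), near the 22.2% and 19.7% of all genes. The polymerase I subunit gene rpa34 read 426.6 in opi10- and 452 in opi10+ at 3 h, against 1433 in opi10- and 1022 in opi10+ before heat (-1.43 ± 0.13, adjusted p = 0.00197), and rpa49 changed by -0.99 ± 0.15. The gene of maf1, the repressor of polymerase III, rose by 0.92 ± 0.18, with 680 in opi10- and 569 in opi10+ at 3 h, against 260.3 in opi10- and 398 in opi10+ before heat. Its call was lost without the opi10- array at 3 h (adjusted p = 0.0643). Falls in this list numbered 4 without either opi10- array and 5 on the deposited scale.

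After quantile normalization few genes of ribosomal proteins and translation factors were called, and more of the mitochondrial ribosome. Of 118 ribosomal protein genes 5 fell and none rose, with a median change of -0.044, under the 22.2% of all genes. The count of falls was 57 when arrays were centred on the median of the other genes in place of quantile normalization. The largest fall, of rps1401 at -0.54 ± 0.11, was lost without the opi10- array at 3 h (adjusted p = 0.0758) or before heat (0.0665), and so were the other 4. Of 27 translation factors 5 fell (18.5%) and 1 rose (3.7%), both under the shares of all genes after quantile normalization. With the centring just described 16 of the 27 fell, where 731 of all 2892 genes did. The standing of the falls against all genes thus depended on the scale. The 1 that rose was hri1, an eIF2alpha kinase gene whose product lowers translation under stress, with 814.7 in opi10- and 1084 in opi10+ at 3 h, against 304.5 in opi10- and 437.3 in opi10+ before heat (1.33 ± 0.10, adjusted p = 0.00147). The 5 falls, led by the cap-binding protein gene tif45 at -0.51 ± 0.10, were lost without the opi10- array at 3 h (0.0675 for tif45) or before heat (0.0674). Of 37 mitochondrial ribosome genes 14 fell and 2 rose, led by mrpl44 at -0.85 ± 0.09, and the falls numbered 7 on the deposited scale and 7 without the opi10- array before heat.

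Nuclear transport and RNA processing genes leaned to the low side. Of 49 nuclear transport genes 19 fell (38.8%) and 2 rose (4.08%), against 22.2% and 19.7% of all genes, with a median change of -0.226. The gene pim1, which encodes the exchange factor that charges Ran in the nucleus, had 582.6 in opi10- and 578.5 in opi10+ at 3 h, against 1285 in opi10- and 980.5 in opi10+ before heat (-0.93 ± 0.11, adjusted p = 0.00304). The nucleoporin gene nup60 changed by -0.75 ± 0.10. The 2 that rose, nup85 at 0.73 ± 0.09 and nup97 at 0.56 ± 0.08, also belong to the nuclear pore and were named after their values were seen. Falls numbered 8 without the opi10- array at 3 h and 10 without the opi10- array before heat.

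Of 74 splicing genes 27 fell (36.5%) and 7 rose (9.46%), against 22.2% and 19.7% of all genes. The Sm core protein gene smd1 read 791.3 in opi10- and 667.2 in opi10+ at 3 h, against 1468 in opi10- and 1221 in opi10+ before heat (-0.87 ± 0.09, adjusted p = 0.00216), and 5 of 7 Sm core genes fell. The U2 particle gene lea1 had 667.2 in opi10- and 669.8 in opi10+ at 3 h, against 1542 in opi10- and 1273 in opi10+ before heat, after a rise to 2263 in opi10- and 1938 in opi10+ at 43C. The balance of splicing genes depended on the scale: on the deposited scale 9 fell and 10 rose, and without the opi10- array before heat 9 fell and 2 rose. Of 30 proteasome genes 12 fell and 1 rose. The lid protease gene rpn11 changed by -0.63 ± 0.10, with 1080 in opi10- and 997.9 in opi10+ at 3 h, against 1748 in opi10- and 1497 in opi10+ before heat, although at 43C it had 3056 in opi10- and 3022 in opi10+. The proteasome falls numbered 3 without either 3 h array and 4 without the opi10- array before heat.

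Several genes of membrane lipid synthesis were low at 3 h. The genes cho1 and cho2, whose products methylate phosphatidylethanolamine to make phosphatidylcholine, changed by -1.07 ± 0.09 and -0.82 ± 0.08. The signal of cho1 was 1344 in opi10- and 1135 in opi10+ at 3 h, against 2731 in opi10- and 2497 in opi10+ before heat (adjusted p = 0.00153). In the same list of 15 phospholipid genes 6 fell (40%) and 4 rose (26.7%), against 22.2% and 19.7% of all genes. The rises included the phospholipase genes plc1 at 0.83 ± 0.16 and plb1 at 0.79 ± 0.13. The rise of plc1 was lost without the opi10- array at 3 h (adjusted p = 0.0508). Of 32 sterol and fatty acid genes 13 fell (40.6%) and 5 rose (15.6%), with a median change of -0.077. The fatty acid synthase gene fas2 read 2526 in opi10- and 2591 in opi10+ at 3 h, against 4354 in opi10- and 4191 in opi10+ before heat (-0.74 ± 0.09, adjusted p = 0.0034), and erg4, for the last step of ergosterol synthesis, changed by -0.83 ± 0.11. In contrast erg31, a sterol desaturase gene, rose by 1.00 ± 0.11, with 1672 in opi10- and 1488 in opi10+ at 3 h, against 804.2 in opi10- and 754.6 in opi10+ before heat. The sterol and fatty acid falls numbered 6 without the opi10+ array at 3 h and 7 without the opi10- array before heat, and the rises 2 without the opi10- array at 3 h.

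The called genes of the G1/S wave were mostly lower at 3 h, while genes of replication and repair moved in both directions. Of 22 MBF targets and regulators 8 fell (36.4%) and 1 rose (4.5%), against 22.2% and 19.7% of all genes, with a median of -0.392. The falls were led by rep2, with 332.1 in opi10- and 253.7 in opi10+ at 3 h, against 874.9 in opi10- and 668.6 in opi10+ before heat (limma, adjusted p = 0.00147). The kinase gene mik1, which restrains Cdc2, changed by -1.0 ± 0.10. The replication licensing gene cdt1, at -1.01 ± 0.22, lost its call when the opi10+ array at 3 h was left out (adjusted p = 0.0761), and when the opi10- array before heat was (0.0641). Of the 6 genes of the MCM replicative helicase 4 fell and none rose, with changes between -0.75 and 0.04. The replication protein A gene ssb2 had 776.7 in opi10- and 647.2 in opi10+ at 3 h, against 1540 in opi10- and 1298 in opi10+ before heat (-0.98 ± 0.10, adjusted p = 0.0021). In the wider list of 81 replication and repair genes 19 were higher and 17 lower, near the shares of all genes, the rises including the recombination gene rad55 at 0.91 ± 0.15 and the checkpoint kinase gene chk1 at 0.90 ± 0.21. The call of chk1 was lost without the opi10+ array at 3 h (adjusted p = 0.0711) and without that of opi10- before heat (0.0876), and MBF list falls numbered 3 on the deposited scale, 3 without the opi10+ array at 3 h and 5 without the opi10- array before heat. The wider list had 10 or 11 rises and 11 or 12 falls without either 3 h array or the opi10- array before heat, and 12 rises without either 1 h array.

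The cell separation gene eng1 and iron uptake genes differed between the strains at 3 h. Of 41 genes of septation and cell separation 7 fell and 2 rose, below the background in both directions, and the falls numbered 3 without the opi10- array before heat. The glucanase gene eng1, which digests the septum, read 620.8 in opi10- and 198 in opi10+ at 3 h, against 1131 in opi10- and 1063 in opi10+ before heat. It had similar levels in the strains before heat and a higher level in opi10- at 3 h, from 1 array each with no test.

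Of 15 iron genes 5 rose and none fell, but none rose and 4 fell without the opi10- array at 3 h. Without the opi10- array before heat 1 rose, and without any other single array 3 or 4 rose and at most 1 fell. With all arrays the 5 rises were 33.3% of the list, against 19.7% of all genes. The largest was sib2, for a first step of making the iron carrier ferrichrome, with 1014 in opi10- and 579 in opi10+ at 3 h, against 224 in opi10- and 294.8 in opi10+ before heat (1.52 ± 0.34, adjusted p = 0.0148). Without the opi10- array at 3 h or before heat, its adjusted p was 0.0657 and 0.0895. The uptake genes str1 and frp1, named after their values were seen, were not called. The siderophore transporter gene str1 read 1170 in opi10- and 351.4 in opi10+ at 3 h, against 2030 in opi10- and 1146 in opi10+ before heat. The ferric reductase gene frp1 read 1067 in opi10- and 102.9 in opi10+ at 3 h, against 639.3 in opi10- and 176.4 in opi10+ before heat. In both genes opi10- was the higher strain in both conditions.

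Set against the other conditions, these genes followed several courses. At 43C 950 genes (32.8%) were called higher and 1152 (39.8%) lower than before heat, with the same arrays before heat as here. The rises of ssa1, pcm2, mug150, cta3, atf21 and pyp2 followed larger rises at 43C, as for pcm2 with 5179 in opi10- and 4580 in opi10+ at 43C. Among rises at 3 h of genes not called at 43C, the 6 largest were ght1, wtf11, sib2, tms1, cha4 and egt1. These calls are on the normalised scale. In deposited signal all 6 read lower at 43C than before heat in both strains, apart from ght1 in opi10-. The deposited signal of egt1 was 524.2 in opi10- and 556.1 in opi10+ at 43C, against 835 in opi10- and 1485 in opi10+ before heat. The call of tms1 was lost with either opi10- array left out (adjusted p = 0.0618 without that at 3 h and 0.0644 without that before heat). The ergothioneine synthesis gene egt1 had 2332 in opi10- and 2387 in opi10+ at 3 h, against 759.8 in opi10- and 1300 in opi10+ before heat (1.23 ± 0.18, adjusted p = 0.00429). Another 6 had been called lower at 43C and were higher at 3 h, namely dak2, mei2, spk1, mde6, alr2 and ste4. The call of mde6 was lost without either 3 h array (adjusted p = 0.0546 without that of opi10- and 0.0664 without that of opi10+). The adaptor gene ste4 of the mating kinase cascade read 1394 in opi10- and 1521 in opi10+ at 3 h, against 721.7 in opi10- and 629.1 in opi10+ before heat.

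In the opposite direction, nrd1, rrs1, lea1, ppp1, nop12 and rpc10 had been called higher at 43C and were lower at 3 h. The gene nrd1, whose RNA-binding product holds back the mating genes that Ste11 drives, read 137.9 in opi10- and 147.9 in opi10+ at 3 h, against 414.5 in opi10- and 304 in opi10+ before heat (-1.22 ± 0.17, adjusted p = 0.004). Other genes came back from large changes. The gene mug106 had 32.78 in opi10- and 24.32 in opi10+ at 3 h, against 29.66 in opi10- and 21.63 in opi10+ before heat, after 853.9 in opi10- and 1005 in opi10+ at 43C. The deacetylase gene sir2 had 560 in opi10- and 575.3 in opi10+ at 3 h, against 566.5 in opi10- and 522.8 in opi10+ before heat, after 27.37 in opi10- and 28.85 in opi10+ at 43C. Both were picked for being within 0.3 of their starting level in each strain, so their return is a description. All of these comparisons share the arrays before heat.

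**Figure D3:**
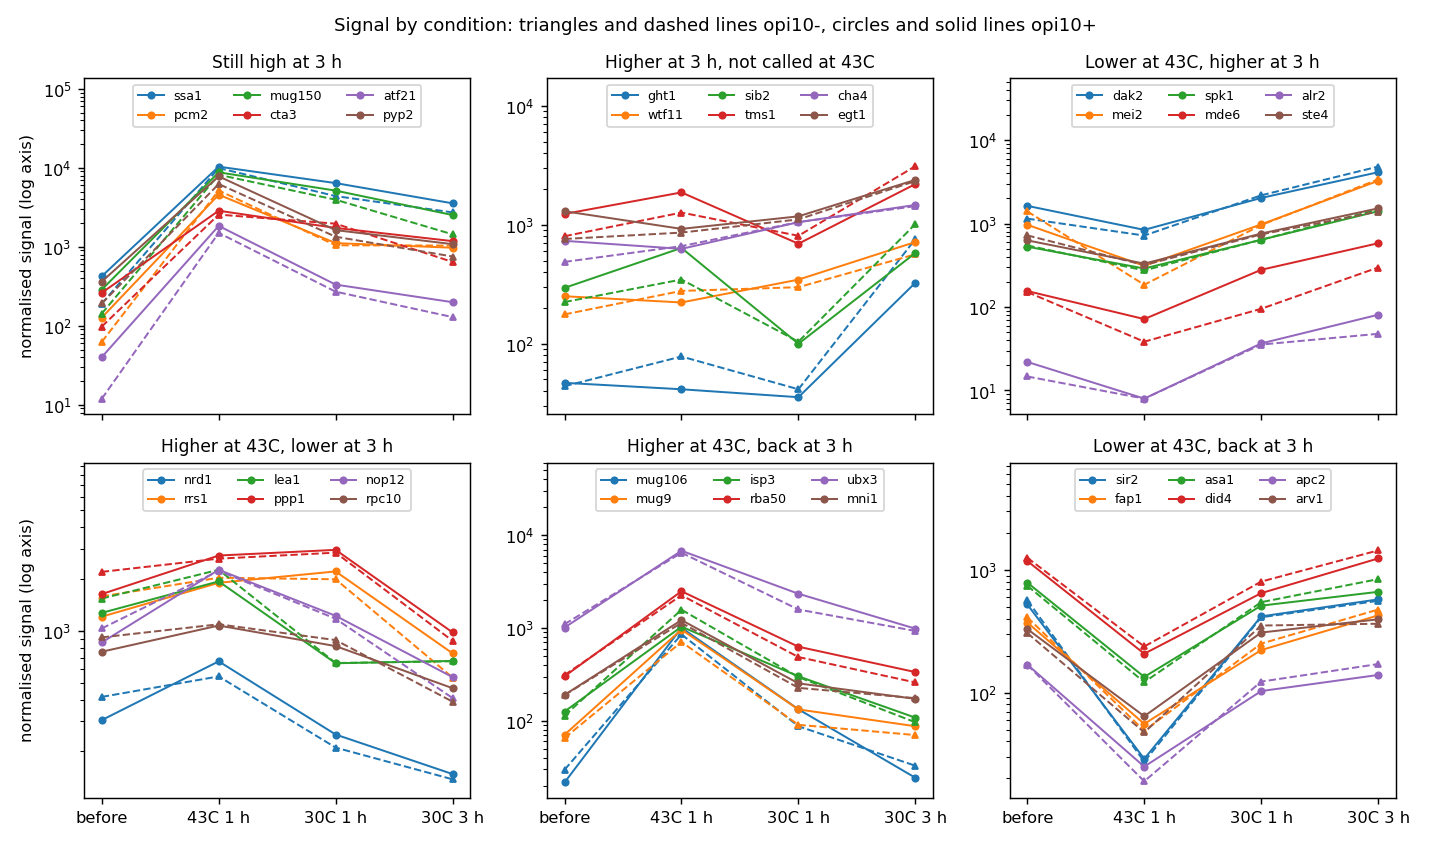
Normalised signal (log axis) before heat, at the end of the heat treatment and at 1 h and 3 h of recovery for 6 groups of 6 genes chosen by their course, 1 point per array, with triangles and dashed lines for opi10- and circles and solid lines for opi10+. The ght1 lines leave their starting level at 3 h (758 and 325.2), and sir2 returns from 27.37 and 28.85 at 43C to 560 and 575.3.

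More genes lay past 2-fold at 3 h in opi10- than in opi10+. In both strains together 48 genes were past 2-fold on the high side and 19 on the low side. In opi10- 140 genes (4.84%) were at least 2-fold higher and 82 (2.84%) at least 2-fold lower at 3 h, compared with 59 (2.04%) and 36 (1.24%) in opi10+. The change was more than 2-fold higher in opi10- than in opi10+ for 33 genes (1.14%) and more than 2-fold lower for 4 (0.138%). Those with the most positive difference were inv1, fet4, rds1 and adg1. The metal transporter gene fet4 read 747.3 in opi10- and 176.4 in opi10+ at 3 h, against 173.1 in opi10- and 150.6 in opi10+ before heat. The gene rds1 read 4256 in opi10- and 4201 in opi10+ at 3 h, against 1035 in opi10- and 3198 in opi10+ before heat. So the difference for fet4 lay in the arrays at 3 h, and those for rds1 and inv1 in the arrays before heat. The gene rds1 was called (1.21 ± 0.39, adjusted p = 0.0464) but not without the opi10- array at 3 h (0.255) or before heat (0.159), nor without the opi10+ array at 3 h (0.0698) or any array at 43C (0.0618) or 1 h (0.0607). The 4 genes with the most negative difference were dbp3, mug62, tlh2 and bip1. With 1 array for each strain and condition, none of these differences has a test.

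**Figure D4:**
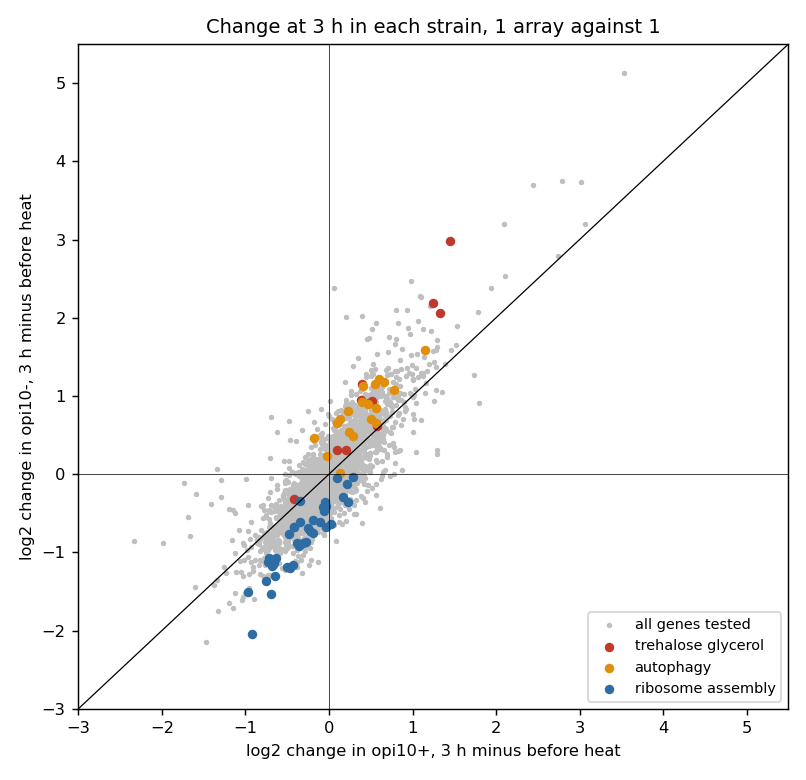
Change at 3 h against before heat (log2) in opi10- (vertical) and opi10+ (horizontal), each 1 array minus 1 array, for all 2892 genes in grey and for 3 gene lists in colour, with the line of equal change. All 11 genes of the trehalose and glycerol list, fps1 included, and 18 of 19 autophagy genes lie above the line. Of 38 ribosome assembly genes, 37 lie below it.

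Of the 85 genes at least 2-fold higher (2.94% of those tested), 3 pairs were neighbours on a chromosome, out of 1689 neighbouring pairs with both genes tested. The count was not tested against the number expected from position alone, so it is a description. They were pcm2 with mel1, mug150 with srk1, and jmj1 with atg101. No neighbouring pair was at least 2-fold lower in both genes.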

How the data were processed

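Each of the 8 arrays measured RNA of 1 strain in 1 condition, extracted with phenol and chloroform and labelled with biotin by a 3' priming kit, per the labels' protocols. The authors deposited 1 table of linear intensity for 10928 probe sets. The sources used here do not name the probe summary or any scaling of the arrays. The number of arrays limits the precision.

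Genes came from the platform annotation, with 113 symbols updated through the ASM294v3 gene table. Probe sets with several genes (20), with S. cerevisiae genes (2601), with a name not placed (3), array controls (213) and probe sets with no gene (5177) were left out of the tests. Values were log2(intensity + 16), quantile normalised over the S. pombe probe sets. A gene was tested where its mean signal exceeded 6.038, a floor set at percentile 75 of S. cerevisiae probe sets, and its brightest probe set stood for it. This left 2892 genes. Limma (version 3.58.1, R 4.3.3; lmFit and eBayes) fitted condition and strain over all 8 arrays, with 3 residual degrees of freedom and 3.48 prior ones, with Benjamini-Hochberg adjustment over all 2892 genes and a threshold of 0.05. The strain term is the replicate block, and pairs the 3 h array with the array before heat of the same strain. The pairing comes from the genotype labels. The fit was tested on simulated data.

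The members and the 39 gene lists were chosen with earlier results of these data known. Listed names found to belong to another gene were taken out after the values were seen, apart from fps1. Lists are described by counts beside those of all genes. Genes named in the text are the 12 largest called rises and falls with the same sign in both strains, the HSP70 family, the 4 largest called changes of each described list, the 6 largest in each course over time, and the 4 largest differences in change between the strains each way. Other genes were named after their values were seen. No coordinates or sequences are given, and promoter motifs were not analysed here. The alternatives were the deposited scale, median centring without ribosomal protein genes, another pseudocount (1 or 64), no filter or one at percentile 95, all probe sets of a gene, the 4 arrays alone, no replicate block, an intensity trend with robust moderation, and each array left out.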

Additional observations from a re-analysis of the deposited data

Results flagged for a closer look

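Outside the named genes, 2967 probe sets with no gene in the annotation used here lay above the same floor. Of these, 54 (1.82%) were at least 2-fold higher at 3 h than before heat in both strains and 24 (0.809%) at least 2-fold lower, compared with 1.66% and 0.657% of the genes tested. The probe set with the largest rise, 1776405_at, read 7896 in opi10- and 4872 in opi10+ at 3 h, against 170 in opi10- and 367 in opi10+ before heat. The next, 1771210_at, read 4641 in opi10- and 2686 in opi10+ at 3 h, against 86.7 in opi10- and 283 in opi10+ before heat. The largest fall was that of 1774879_at, with 389 in opi10- and 341 in opi10+ at 3 h, against 1822 in opi10- and 1514 in opi10+ before heat. They are unnamed here.

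For 9 of the genes chosen by the naming rule the strains moved in opposite directions between before heat and 3 h, each from 1 array against 1, and the difference was not tested. None of the 9 passed the test over both strains. The change in opi10- minus that in opi10+ was -1.04 for mug62, a gene near the floor, and -1.02 for bip1. It was -0.64 for pss1, -0.24 for ssa2 and -0.11 for sks2, of the HSP70 family, as bip1 is. The family members ssa1 and ssc1 moved one way in both strains. Among genes picked for having come back by 3 h, the difference was -0.40 for rba50, -0.15 for sir2, 0.27 for apc2 and 0.42 for asa1. The iron gene frp1, named outside the rule, also moved in opposite directions, by 0.72 in opi10- and -0.69 in opi10+.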

How the results depend on the processing

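The counts of genes higher and lower at 3 h, 569 and 643, were 525 and 603 without the replicate block of strain, that is, with the arrays not paired, and 430 and 455 from the 4 arrays alone. With 1 array left out the counts ranged from 275 to 568 for higher and from 292 to 625 for lower genes. Genes at least 2-fold higher numbered 85, and 57 to 138 with 1 array left out, and 141 on the deposited scale. Genes at least 2-fold lower numbered 40, and 21 to 76 with 1 array left out, 16 on the deposited scale and 22 with a pseudocount of 64. On the deposited scale 330 genes were lower. The cause of these differences was not tested. Where leaving out an array left 1 array in a condition, its spread was assumed to be that of the others.

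Of 183 named genes 162 were called, 102 of them under every one of the 18 alternatives, and 60 lost the call under at least 1. No named gene that was called changed direction. Fewest calls held without the opi10- arrays: 48 named genes were lost without the one at 3 h and 43 without the one before heat. Of the named genes, 21 lost their call with the 4 arrays alone and 5 with no replicate block. No setting of scale or filter cost more than 17. Relative to all genes, the medians of the amino acid synthesis, cation transport, histone and replication and repair lists had another sign on the deposited scale. Signals near 6.038 are limited by background.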
